A study of Mus musculus with 2 samples.

Results

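Genes of the cornified envelope and the S100A family were examined in fetal thymic epithelium. The members were every gene symbol beginning with Sprr, Lce or S100a followed by a digit, together with 15 single genes of keratinocyte differentiation, and 62 of the 25791 symbols in the files met this rule. They comprised 16 Sprr genes, 18 Lce genes, 13 S100a genes and the 15 single genes. RNA was sequenced from fetal mice at 15 days post coitum, from thymus cells sorted as positive for EpCAM and negative for CD45 and PDGFRa. There was 1 library titled B6J, of strain C57BL/6, and 1 titled humanCD3eTg, of background C57BL/6J x CBA/J, which by its title carries a human CD3e transgene. The study set epithelium with thymocytes beside epithelium without them. The treatment labels give absence of thymocytes for B6J and presence for humanCD3eTg, although mice with many copies of human CD3E are generally known to lack T cells. Groups are therefore named by their titles, and each ratio is humanCD3eTg over B6J. Transgene and strain background cannot be told apart in this design. With 1 library per group there was no replicate, so the variation among animals is unknown and no test was made.

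The cornified envelope is a protein shell that replaces the plasma membrane of a dying keratinocyte. Transglutaminases cross-link precursors such as involucrin, loricrin and the small proline-rich (Sprr) proteins, and late cornified envelope (Lce) proteins join at the end. Most of these genes lie next to the S100A genes in a cluster called the epidermal differentiation complex. S100A proteins are small calcium-binding proteins, several of which pair with annexins. In the thymus, cornifying epithelium is known from the medulla, where Hassall's corpuscles form.

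Markers of thymic epithelium were present in both libraries and differed between them. All 17 thymic epithelial markers were above 0 in both, with a summed level of 5919 FPKM (fragments counted relative to transcript length and library total) in B6J and 5629 FPKM in humanCD3eTg. Of the 17, 13 were lower and 4 higher in humanCD3eTg, with a median log2 ratio of FPKM + 1 of -0.33. Those at least 2-fold lower were Foxn1, the regulator of thymic epithelial identity, at 91.1 and 43.7 FPKM, Cd40 at 20.1 and 2.40 FPKM, and Aire, which marks mature medullary epithelium, at 7.53 and 0.0366 FPKM. Krt5 alone was at least 2-fold higher, at 280.2 and 955.5 FPKM. The part of these differences in the values of the members was not tested. The low values of the files place the depth at about 20121000 and 15848000 fragments, an approximate estimate. Thymocyte markers summed to 257.8 and 14.7 FPKM, pan-haematopoietic markers to 223.5 and 78.7 FPKM, and endothelial markers to 91.9 and 36.1 FPKM, so these were lower in humanCD3eTg. Neural crest and pigment markers went the other way, at 30.6 and 189.7 FPKM. The thymocyte sums thus ran opposite to the treatment labels, which give presence of thymocytes for humanCD3eTg. In RNA from a sorted population, fewer cells of a type and less RNA per cell cannot be told apart.

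The upstream sequences of 4 members that hold an AP-1 motif are shown here as examples, chosen after the values and the matches were seen. Sbsn, Dmkn and Krtdap are immediate neighbours that stood higher in humanCD3eTg, and Sprr1a was the Sprr gene with the highest level. On FPKM + 1, Krtdap had the largest ratio of the members with a mean of at least 1 FPKM that were higher in humanCD3eTg. In plain FPKM, Lce3c and Lce1f, both under 1 FPKM in B6J, had larger ratios. Not every member with a large difference held a match: the windows of Acpp, Sprr2a2 and Sprr2a3 held 0 matches to the 3 motifs searched. The bases after the annotated starts of Sprr2a2 and Sprr2a3 were not found in their GENCODE transcripts, so these windows may not lie at the true starts. Each sequence is the 250 bases before an annotated start, 5′ to 3′ on the strand of the gene, from RefSeq on build GRCm38.p6, a later build than the mm9 named for the files. Capitals mark matches to the AP-1 motif TGANTCA or to TATAAA, searched on both strands.
Sbsn (chr7:30751221-30751470, plus strand): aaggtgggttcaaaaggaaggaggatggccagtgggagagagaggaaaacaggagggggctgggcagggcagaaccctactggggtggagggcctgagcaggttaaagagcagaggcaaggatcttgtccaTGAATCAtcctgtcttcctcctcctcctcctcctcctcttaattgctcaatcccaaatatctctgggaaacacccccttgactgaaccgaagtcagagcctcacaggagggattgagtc
Dmkn (chr7:30763506-30763755, plus strand): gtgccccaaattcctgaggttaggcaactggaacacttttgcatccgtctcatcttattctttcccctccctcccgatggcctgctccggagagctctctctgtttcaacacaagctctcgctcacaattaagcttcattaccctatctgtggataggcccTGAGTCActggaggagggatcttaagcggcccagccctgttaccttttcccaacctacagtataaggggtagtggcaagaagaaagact
Krtdap (chr7:30787655-30787904, plus strand): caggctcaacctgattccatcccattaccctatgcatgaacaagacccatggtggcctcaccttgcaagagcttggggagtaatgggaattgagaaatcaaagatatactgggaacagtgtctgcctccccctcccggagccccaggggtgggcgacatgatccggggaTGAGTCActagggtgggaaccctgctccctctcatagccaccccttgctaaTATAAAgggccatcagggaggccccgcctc
Sprr1a (chr3:92485882-92486131, minus strand): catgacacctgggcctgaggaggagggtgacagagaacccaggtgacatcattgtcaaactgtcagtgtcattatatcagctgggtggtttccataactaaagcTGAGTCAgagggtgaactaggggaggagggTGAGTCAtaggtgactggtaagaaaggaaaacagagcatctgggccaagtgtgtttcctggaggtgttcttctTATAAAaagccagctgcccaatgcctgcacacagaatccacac
AP-1 is a dimer of Jun and Fos proteins known for its role in keratinocyte genes. Its motif began 119 bases before the start in Sbsn, 89 in Dmkn, 81 in Krtdap, and 146 and 116 in Sprr1a, and TATAAA began 30 bases before it in Krtdap and 43 in Sprr1a. None of these matches overlapped another.

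Across the members, 22 of 63 upstream windows (56 genes matched by symbol) held TGANTCA, beside 6.75% of all 32851 RefSeq windows of this length. TATAAA was present in 25 of 63, beside 12.4%. The Grainyhead motif AACNGGTT, also searched on both strands, was present in 4 of 63, beside 1.79%. By gene, the AP-1 motif was present in 9 of 13 Sprr genes, 0 of 17 Lce genes, 2 of 11 S100a genes and 9 of the 15 single genes that were matched, beside 7.82% of all 27025 genes in the table. Sprr and Lce genes are tandem copies, so their windows are not independent sequences. Sorted by direction, the AP-1 motif was present in 4 of 8 members at least 2-fold higher in humanCD3eTg, in 0 of 4 at least 2-fold lower, in 6 of 13 within 2-fold and in 10 of 31 whose mean was under 1 FPKM. The 4 lower genes include the copies Sprr2a2 and Sprr2a3, whose starts were not matched by their transcripts, so no contrast by direction is drawn. A match of letters is a description and not a bound site.

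Most members stood low in fetal thymic epithelium. Of 62 members, 13 were listed at 0 in both libraries, 6 in B6J alone and 10 in humanCD3eTg alone. Genes whose mean over the libraries was 1 FPKM or more are called measured below. There were 30 measured members, of which 24 reached 1 FPKM in both libraries, 4 in B6J alone and 2 in humanCD3eTg alone. The whole group summed to 2497 FPKM in B6J and 3369 FPKM in humanCD3eTg. Differences were measured as the log2 ratio of FPKM + 1, which understates differences of low genes, and a size of at least 1 was counted as 2-fold. Of the 30 members, 9 were at least 2-fold higher in humanCD3eTg, where 2.10% of all 13493 measured genes were, and 6 were at least 2-fold lower, where 4.47% of all genes were. The 6 lower include Sprr2a and Sprr2a2, which carry the same values in both libraries. By any amount, 16 were higher and 14 lower, beside 44.6% and 55.4% of all measured genes. The median log2 ratio of the 30 was 0.15, beside -0.05 for all 13493 genes. Counted over all 62 members with no filter, 11 were at least 2-fold higher and 7 at least 2-fold lower, beside 1.30% and 2.81% of all 25791 genes. Members that reached 1 FPKM in only 1 library differ in part through that filter. Among the 24 that reached it in both, 7 were at least 2-fold higher and 3 at least 2-fold lower, beside 1.26% and 2.44% of all genes of this kind. The members therefore stood on both sides of an equal level, and no common direction held for the group.

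**Figure D1:**
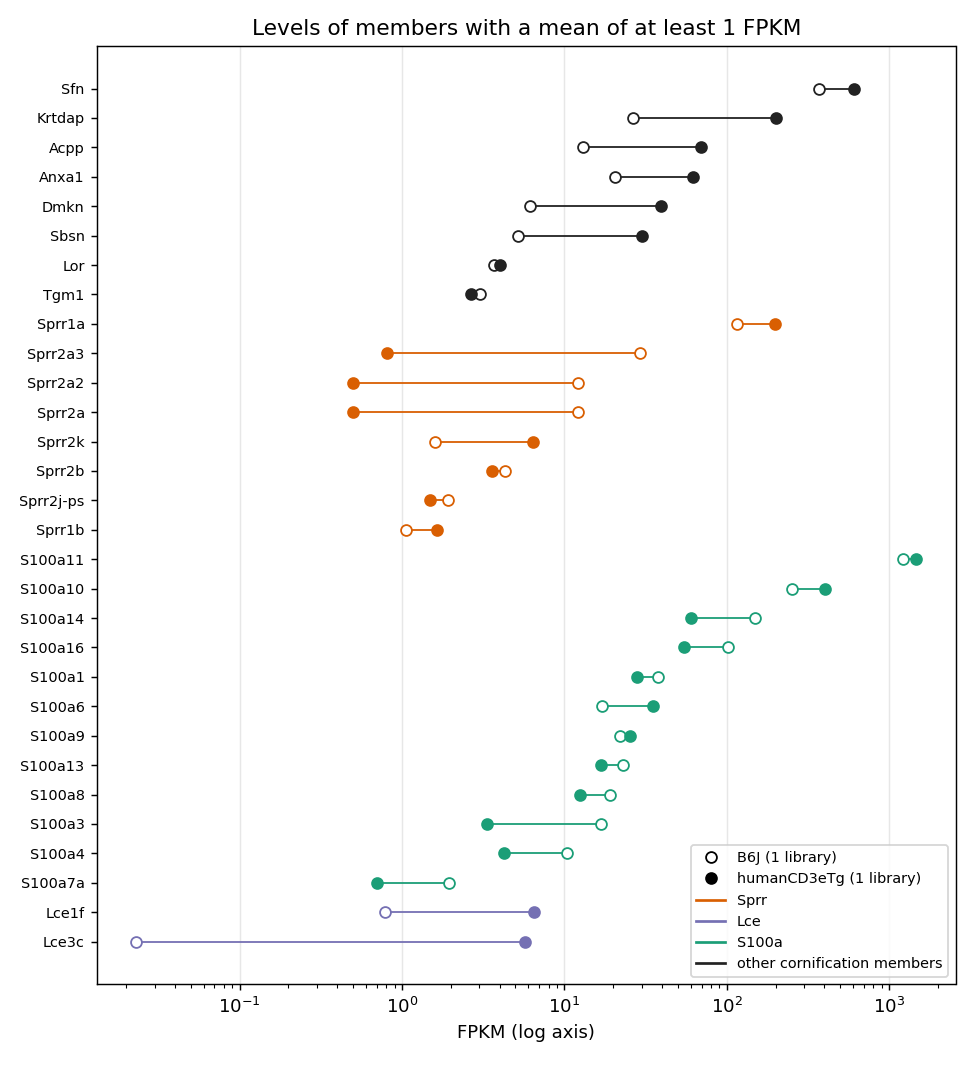
FPKM on a log axis of the 30 measured members; open points are the B6J library, filled points the humanCD3eTg library, and colours mark the gene groups. Krtdap, Acpp, Dmkn and Sbsn lie far to the right in humanCD3eTg, Sprr2a3 and Sprr2a2 far to the left, and S100a11 is the highest, at 1214 and 1475 FPKM.

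**Figure D2:**
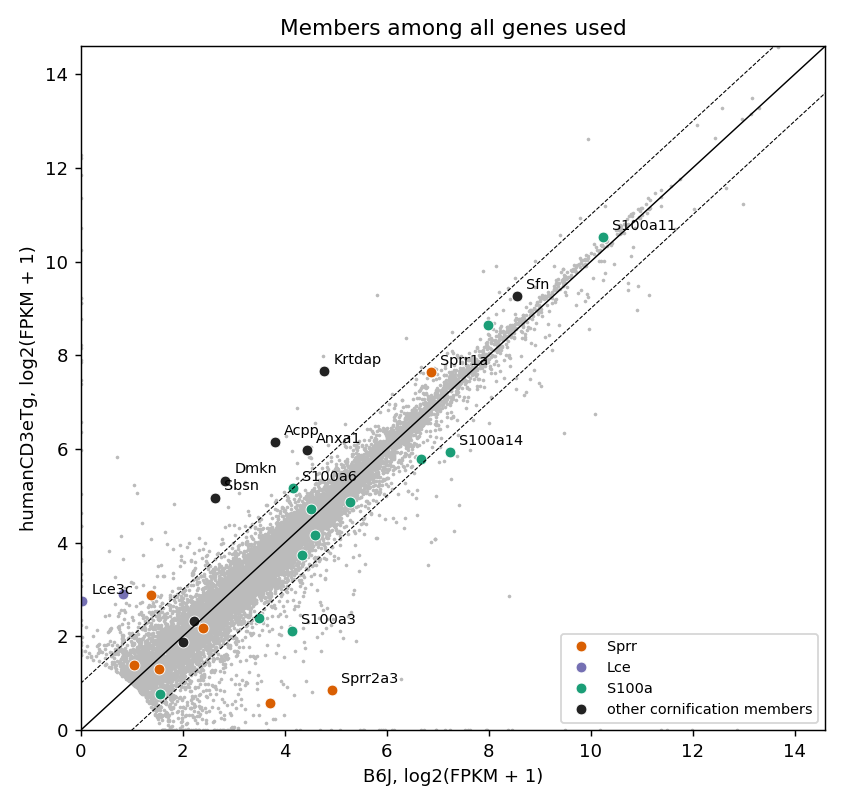
Log2(FPKM + 1) in B6J (x axis) and humanCD3eTg (y axis) for the 13493 measured genes in grey and the members in colour; the solid line is equality and dashed lines are 2-fold. Of the members, 9 lie on or above the upper dashed line and 6 below the lower one.

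Of the 15 single genes 8 were measured, with a median log2 ratio of 1.93. Of the 8, 5 were at least 2-fold higher in humanCD3eTg (beside 2.10% of all measured genes) and 0 at least 2-fold lower (beside 4.47%). Among them, secreted products of differentiating keratinocytes stood several-fold higher. Krtdap, which encodes a keratinocyte differentiation-associated peptide, stood at 26.4 FPKM in B6J and 201.1 FPKM in humanCD3eTg. Dmkn, which encodes dermokine, stood at 6.13 and 39.1 FPKM. Sbsn, which encodes suprabasin, stood at 5.21 and 30.2 FPKM. All 3 were higher in humanCD3eTg, by 7.63-fold, 6.38-fold and 5.79-fold in FPKM, with log2 ratios on FPKM + 1 of 2.88, 2.49 and 2.33. They lie side by side on chromosome 7 in the order Sbsn, Dmkn, Krtdap. The protein-coding genes on either side were near 0, with Gapdhs listed at 0 in B6J and at 0.202 FPKM in humanCD3eTg, and Ffar2 at 0.0281 and 0.167 FPKM. Of the 50-base windows of Sbsn, 9.93% also occur in the transcript Tmem147os, while Dmkn and Krtdap shared none with another gene.

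Acpp and Anxa1 differed in the same direction. Acpp, which encodes an acid phosphatase with a membrane form, stood at 13.0 FPKM in B6J and 69.6 FPKM in humanCD3eTg, a log2 ratio of 2.33. Anxa1, which encodes annexin A1, a calcium-dependent membrane-binding protein and S100A11 partner, stood at 20.6 and 61.8 FPKM, a log2 ratio of 1.54. Sfn, which encodes the 14-3-3 sigma protein of stratified epithelia, stood at 372.7 and 611.9 FPKM. Sfn was the most abundant of the single genes in both libraries, at rank 283 and 193 of all genes, and its difference of 1.64-fold in FPKM remained under 2-fold.

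The neural crest and pigment markers given above moved in the same direction as these genes. Of their 11 measured genes, 10 were higher in humanCD3eTg, 9 of them at least 2-fold, and of the 13 found Tyrp1 was listed at 0 in both libraries. Their part in the higher keratinocyte values was not tested. A list of keratins, mostly of epidermal layers, also held Krt8, Krt18 and Krt19, which are keratins of simple epithelia. Of its 12 measured genes 6 were higher and 6 lower, with a median of 0.05. Of the 12, 5 were at least 2-fold higher (beside 2.10% of all measured genes) and 1 at least 2-fold lower (beside 4.47%). The 5 were Krt5 of the basal layer, given above, and 4 others. Krt6a stood at 16.7 and 60.9 FPKM, Krt6b at 4.0 and 16.1 FPKM, Krt19 at 8.36 and 38.6 FPKM and Krt80 at 2.0 and 5.54 FPKM. These moved in the direction of Krtdap, Dmkn and Sbsn, while Krt14, the basal partner of Krt5, was the lower one, at 22.9 and 9.05 FPKM. Krt10, a keratin of differentiating epidermis, stood at 2.93 and 2.67 FPKM, its partner Krt1 at 0.378 and 1.12 FPKM, and Krt2 of the upper epidermis was listed at 0 in both.

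Loricrin, involucrin, the filaggrin-like genes and the transglutaminases stood low. Lor, which encodes loricrin, the main envelope protein of epidermis, stood at 3.68 FPKM in B6J and 4.0 FPKM in humanCD3eTg, about 116.1 and 99.6 estimated fragments. Tgm1, which encodes the membrane-bound transglutaminase, stood at 3.01 and 2.67 FPKM. Lor was 1.09-fold higher and Tgm1 1.13-fold lower in humanCD3eTg, so both were nearly level, and Tgm1 changed sign under quantile normalization. Ivl, which encodes involucrin, was listed at 0.118 FPKM in B6J, about 4.05 fragments, and at 0 in humanCD3eTg. Tgm3, another transglutaminase of the epidermis and hair, was listed at 0.0511 and 0 FPKM, about 4.04 fragments in B6J. At these few fragments a difference between the libraries was not detectable. The filaggrin-like S100 fused genes were at or near 0: Crnn, Hrnr and Rptn were listed at 0 in both libraries, and Flg and Flg2 stood at 0.0182 and 0.0546 FPKM in B6J and 0 in humanCD3eTg. Involucrin and filaggrin genes were thus listed at 0 in the library in which Krtdap, Dmkn and Sbsn stood high.

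The Sprr family was carried by Sprr1a in both libraries. Sprr1a stood at 115.5 FPKM in B6J and 199.4 FPKM in humanCD3eTg, about 1385 and 1883 estimated fragments, a log2 ratio of 0.78. Its close relative Sprr1b stood far lower, at 1.05 and 1.64 FPKM. Both were higher in humanCD3eTg, by less than 2-fold. Sprr3 and Sprr4 were listed at 0 in both libraries. The family as a whole summed to 179.3 and 215.9 FPKM, a sum that includes both Sprr2a and Sprr2a2, which carry the same values.

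The Sprr2 genes, a tandem array of short copies, split in direction. Sprr2a3 stood at 29.4 FPKM in B6J and 0.812 FPKM in humanCD3eTg, 36.2-fold lower in FPKM. Sprr2a and Sprr2a2 were both listed at 12.1 FPKM in B6J and 0.497 FPKM in humanCD3eTg, 24.4-fold lower, and they were the only 1 pair of members with equal values above 0. RefSeq gives Sprr2a as another name of several of these copies. In GENCODE transcripts, 96.5% of the 50-base windows of Sprr2a2 and 61.1% of those of Sprr2a3 also occur in Sprr2a1, so the division of fragments among these copies is uncertain. The Sprr2a copies were therefore low together in humanCD3eTg, and the values cannot be assigned to 1 copy.

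The other Sprr2 genes differed among themselves in direction. Sprr2k stood at 1.61 FPKM in B6J and 6.38 FPKM in humanCD3eTg, about 13.8 and 43.2 fragments (95% Poisson intervals 7.51 to 23.2 and 31.3 to 58.1), a log2 ratio of 1.5. Sprr2b stood at 4.31 and 3.57 FPKM, and the pseudogene Sprr2j-ps at 1.92 and 1.48 FPKM. Sprr2k was higher in humanCD3eTg, and Sprr2b and Sprr2j-ps were slightly lower. Sprr2d was listed at 1.05 FPKM in B6J, about 9.92 fragments, and at 0 in humanCD3eTg. In the opposite direction, Sprr2f was listed at 0 in B6J and at 1.71 FPKM in humanCD3eTg, about 10.8 fragments. Sprr2g was listed at 0.223 FPKM in B6J and 0 in humanCD3eTg, and Sprr2e, Sprr2h and Sprr2i were listed at 0 in both. The intervals cover counting error only, and shared fragments between copies are outside them.

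Lce genes were near the limit of detection, with a few exceptions in humanCD3eTg. The 18 genes summed to 2.52 FPKM in B6J and 15.0 FPKM in humanCD3eTg. Lce1f stood at 0.782 FPKM in B6J and 6.51 FPKM in humanCD3eTg, about 8.15 and 53.4 estimated fragments, with 95% Poisson intervals of 3.55 to 16.0 and 40.1 to 69.8. Lce3c stood at 0.0231 FPKM in B6J, under the value of 1 fragment, and at 5.75 FPKM in humanCD3eTg, about 32.5 fragments (22.3 to 45.8). Lce3f, its near neighbour, stood at 0.0205 and 1.84 FPKM, about 11.7 fragments in humanCD3eTg. Of the 50-base windows of Lce3c, 34.2% also occur in Lce3f, so the division of fragments between them is uncertain. Together Lce1f, Lce3c and Lce3f held most of the Lce signal of the humanCD3eTg library. In B6J the highest Lce genes after Lce1f were Lce1e at 0.595 FPKM and Lce1b at 0.451 FPKM. Of the 18 genes, 4 were listed at 0 in both libraries, 5 in B6J alone and 4 in humanCD3eTg alone. Among genes with 1 annotated transcript, 9 Lce values above 0 lay below the value of 1 fragment. In GENCODE, 16 of the 18 share 50-base windows with another gene, over 9.12% to 48.0% of their windows, so single Lce values are uncertain.

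S100a11 was the most abundant member in both libraries. S100a11, whose protein pairs with annexin A1, stood at 1214 FPKM in B6J and 1475 FPKM in humanCD3eTg, at rank 81 and 68 of all genes. It made up 65.1% and 69.6% of the S100A sum of 1864 and 2118 FPKM. S100a10, which came after Sfn in level and whose protein forms a complex with annexin A2, stood at 251.2 and 402.1 FPKM, a log2 ratio of 0.68. These 2 genes lie together at one end of the epidermal differentiation complex, and both were higher in humanCD3eTg by less than 2-fold. Of the 50-base windows of S100a11, 41.1% also occur in the gene model Gm12854.

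At the other end of the complex most S100A genes were lower. S100a14, an epithelial member of the family, stood at 149.5 FPKM in B6J and 60.2 FPKM in humanCD3eTg, a log2 ratio of -1.30. S100a16, its neighbour, stood at 101.5 and 54.3 FPKM, a ratio of -0.89. S100a1, better known from heart muscle, stood at 37.7 and 28.1 FPKM. S100a13, which takes part in the release of FGF1, stood at 23.1 and 16.9 FPKM. These 4 adjacent genes were thus all lower in humanCD3eTg, and S100a14 alone by more than 2-fold.

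S100a3, S100a4 and S100a6 lie close together and did not share a direction. S100a3, a cysteine-rich member known from the hair cuticle, stood at 16.7 FPKM in B6J and 3.35 FPKM in humanCD3eTg, a log2 ratio of -2.03. S100a4, known from motile cells, fibroblasts and lymphocytes, stood at 10.3 and 4.28 FPKM, a ratio of -1.10. S100a6, which encodes calcyclin, stood at 17.0 and 35.0 FPKM, a ratio of 1.0 that lies at the 2-fold limit and fell under it with 1 other scaling. The ratio of S100a3 to S100a6 in FPKM was 0.985 in B6J and 0.0957 in humanCD3eTg. S100a5, between them, was listed at 0 in both. Of the windows of S100a4, 56.3% also occur in the gene model Gm42674. The thymocyte, pan-haematopoietic and endothelial markers given above moved in the same direction as S100a3 and S100a4, with 14 of 14, 13 of 13 and 12 of 12 genes lower. Of the 17 thymocyte markers 4 were listed at 0 in humanCD3eTg, while others remained above 0, such as Tcf7 at 27.2 and 3.57 FPKM, and so did the pan-haematopoietic Arhgdib at 117.4 and 64.9 FPKM. Mesenchymal markers summed to 450.4 and 685.7 FPKM, with 6 of 13 measured genes higher and 7 lower. Of these, 3 were at least 2-fold higher (Vim at 153.7 and 358.0 FPKM, Lox at 1.85 and 10.4 FPKM, Fbln2 at 3.75 and 11.1 FPKM) and 0 at least 2-fold lower, and the median of the 13 was -0.05. S100a6 and Anxa1 moved in the direction of those 3 genes and S100a4 in the opposite one. The part of any of these cells in the S100A and Anxa1 values was not tested.

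S100a8 and S100a9, which together form the antimicrobial protein calprotectin, were both present. S100a9 stood at 22.0 FPKM in B6J and 25.5 FPKM in humanCD3eTg, and S100a8 at 19.1 and 12.4 FPKM. The ratio of S100a8 to S100a9 was 0.870 and 0.486. Neither gene differed by 2-fold. Neutrophils, a main source of calprotectin, had markers that summed to 68.7 and 31.1 FPKM, with 4 of 6 genes lower in humanCD3eTg. Mmp9, a gelatinase gene, made most of this difference at 42.9 and 9.54 FPKM, and the other 14 markers, a sum added after seeing the data, came to 25.9 and 21.5 FPKM. Of the 15 neutrophil markers Mpo, Elane and Ctsg were listed at 0 in both libraries, while Ngp stood at 7.93 and 6.46 FPKM and Camp at 5.82 and 5.91 FPKM. Macrophage and dendritic markers summed to 34.0 and 27.4 FPKM, while of their 7 measured genes 4 were higher and 3 lower, with a median log2 ratio of 0.33. The part of such cells in the calprotectin values was not tested. S100a7a, the psoriasin-like member, stood at 1.95 and 0.705 FPKM. Across the family 12 of 13 genes were measured, with a median log2 ratio of -0.51. By any amount 4 were higher and 8 lower, beside 44.6% and 55.4% of all measured genes. Of the 12, 1 was at least 2-fold higher and 3 at least 2-fold lower, beside 2.10% and 4.47% of all measured genes.

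The ratios were also set in the order of the genes along the complex. Between S100a1 and S100a10, RefSeq on GRCm38.p6 orders 70 protein-coding genes, of which 61 were found in the files and 51 were members. Of the 21 measured members there, 4 were at least 2-fold higher and 5 at least 2-fold lower, beside 2.10% and 4.47% of all measured genes. The 5 lower include Sprr2a2 and Sprr2a3, whose values cannot be assigned to 1 copy. The 10 other genes found were low, and 0 of the 2 measured ones differed by 2-fold. These were Tchh, which encodes trichohyalin, at 2.01 and 2.52 FPKM, and 2310050C09Rik at 1.16 and 1.02 FPKM. Higher and lower genes stood side by side within the S100A and Sprr stretches.

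**Figure D3:**
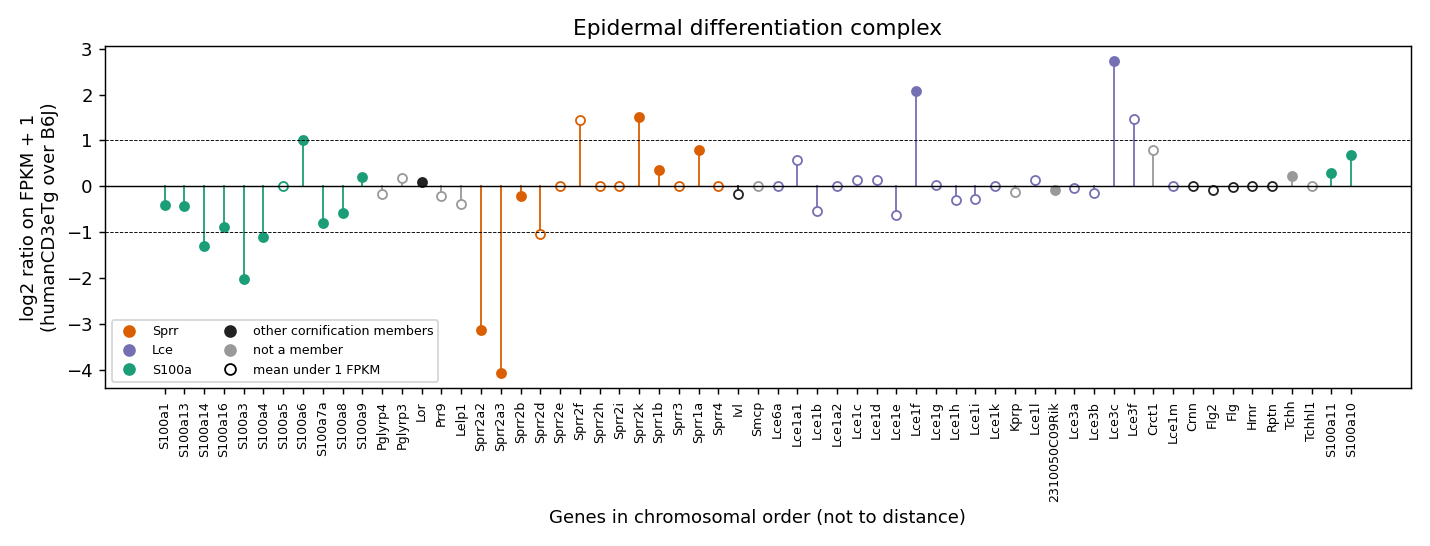
Log2 ratio on FPKM + 1 (humanCD3eTg over B6J) of the 61 genes of the epidermal differentiation complex found in the files, in chromosomal order and not to distance; filled points are measured genes, open points have a mean under 1 FPKM, grey genes are not members and dashed lines are 2-fold. S100A genes at the left are mostly below 0, Sprr2a2 and Sprr2a3 form the deepest pair at -3.13 and -4.07, and Lce3c is the highest at 2.72.

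In a list of envelope partners and other cornification genes, 32 of 33 were found and 13 measured, 10 of them higher and 3 lower in humanCD3eTg, with a median of 0.63. Of the 13, 2 were at least 2-fold higher (15.4%, beside 2.10% of all measured genes) and 0 at least 2-fold lower (beside 4.47%), and with a pseudocount of 0.1 or quantile normalization 5 were at least 2-fold higher. Lypd3, a surface protein of differentiating keratinocytes, stood at 2.87 and 7.21 FPKM, and Cnfn, which encodes cornifelin, was listed at 0 in B6J and at 2.28 FPKM in humanCD3eTg. Ppl, which encodes the envelope scaffold protein periplakin, stood at 2.54 and 5.90 FPKM, and Serpinb5, which encodes maspin, at 1.16 and 3.31 FPKM. The most abundant were Cstb, a cysteine protease inhibitor gene, at 813.5 and 965.8 FPKM, Lgals3, the galectin-3 gene, at 13.1 and 25.5 FPKM, and Serpinb2 at 5.90 and 9.67 FPKM. Evpl, the envoplakin partner of periplakin, was level at 1.39 and 1.32 FPKM.

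Barrier protease and lipid genes had no common direction. Of 33 found, 18 were measured, 8 higher and 10 lower, with a median of -0.09. In each direction 1 gene (5.56%) differed by at least 2-fold, beside 2.10% higher and 4.47% lower of all measured genes. Aqp3, a glycerol and water channel of keratinocytes, stood at 5.80 FPKM in B6J and 16.0 FPKM in humanCD3eTg. Alox12e, an epidermal lipoxygenase gene, stood at 19.5 and 1.77 FPKM. The protease inhibitor genes Spint2 and Spint1 were the most abundant, Spint2 at 152.2 and 100.9 FPKM, Spint1 at 39.2 and 25.0 FPKM. Their protease target St14, known as matriptase, stood at 20.4 and 18.2 FPKM, and the fatty acid elongase gene Elovl1 at 18.4 and 18.0 FPKM. Abhd5 stood at 5.04 and 9.79 FPKM and Smpd1, an acid sphingomyelinase gene, at 8.21 and 3.95 FPKM.

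Partners and receptors of S100 proteins mostly differed by less than 2-fold. Of 23 found, 18 were measured, 9 higher and 9 lower, with a median of 0.01. Of the 18, 1 (5.56%) was at least 2-fold higher and 2 (11.1%) at least 2-fold lower, beside 2.10% and 4.47% of all measured genes. Anxa2, the partner of S100a10, stood at 300.4 FPKM in B6J and 358.4 FPKM in humanCD3eTg, and the ratio of S100a10 to Anxa2 in FPKM was 0.836 and 1.12. Of the further annexin genes, Anxa5 stood at 259.7 and 284.7 FPKM, Anxa6 at 70.7 and 78.9 FPKM, and Anxa3 at 6.99 and 12.7 FPKM. Anxa1 was thus the annexin gene with the largest difference among those listed here. Ager, which encodes the S100 receptor RAGE, stood at 4.33 and 1.24 FPKM, a log2 ratio of -1.25. Bsg, another reported S100A9 receptor, stood at 156.8 and 140.9 FPKM. Cd36, a fatty acid transporter linked to S100A8 and S100A9, stood at 2.50 and 0.661 FPKM, and S100g, which encodes calbindin-D9k, at 0.905 and 3.89 FPKM. Ager and Cd36 moved with the markers of lymphoid, blood and vessel cells, whose part was not tested.

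**Figure D4:**
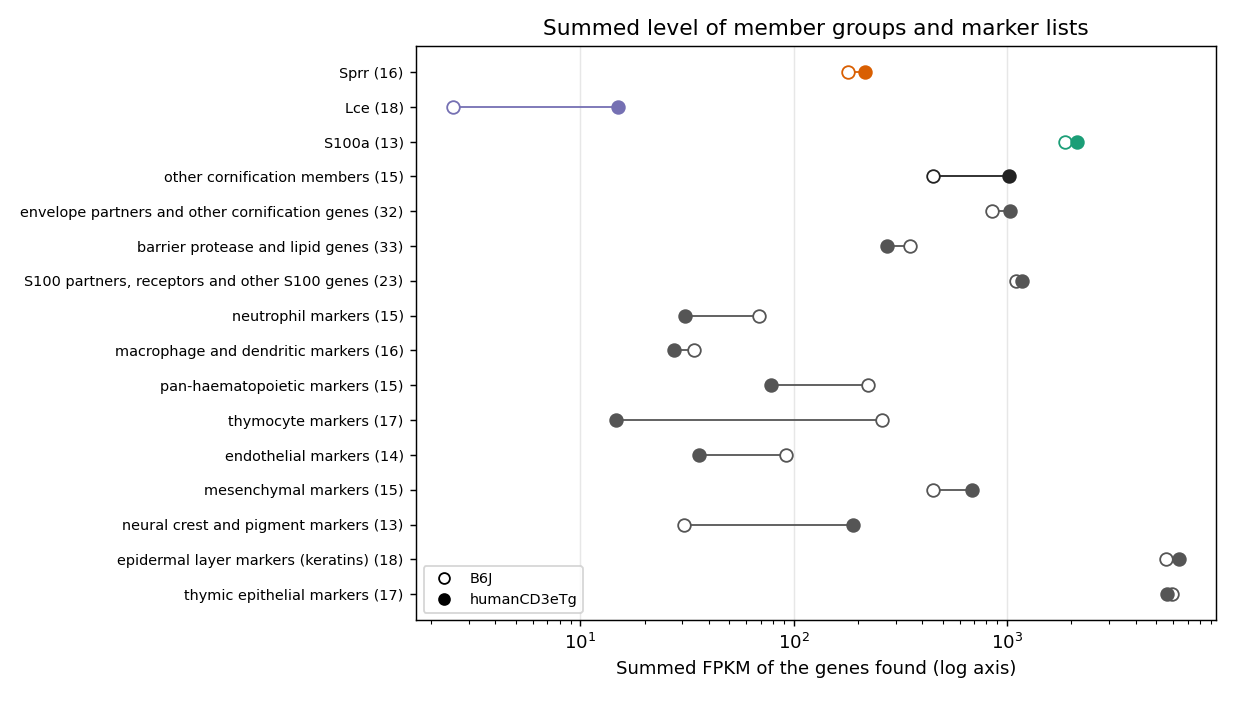
Summed FPKM on a log axis of the 4 member groups (colour) and the comparison and marker lists (grey), with the number of genes found in brackets; open points are B6J and filled points humanCD3eTg, 1 library each. The single cornification genes stand at 451.0 and 1020 FPKM, of which Sfn alone holds 372.7 and 611.9 FPKM. Thymocyte markers stand at 257.8 and 14.7 FPKM, and neural crest and pigment markers at 30.6 and 189.7 FPKM.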

How the data were processed

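Total RNA of 2 libraries of sorted thymic epithelial cells was turned into libraries with TruSeq reagents, per the labels' protocols. The authors deposited 1 FPKM value per gene symbol and library. Per the submitters' processing notes, the tools were TopHat2 2.0.8, Bowtie2 2.1.0 and Cufflinks 2.1.1 and the build was mm9; their roles are not given. The annotation and the strand setting are likewise not stated there, and reads of overlapping or antisense genes may have been counted together.

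From the deposited FPKM values, log2 ratios on FPKM + 1 were computed with pandas 2.3.3 in Python 3.11.15 for genes whose mean was 1 FPKM or more. No p-value was computed. Values of at most 0.001 FPKM are called listed at 0, can be failed estimates and get no fold. Depth was estimated from the steps of low values, with GENCODE M21 transcript lengths less 210 bases and steps searched between 0.04 and 0.09 FPKM. Of 593 and 417 low genes, 57.2% and 57.3% lay less than 0.1 fragments from a whole number. Fragment numbers are given only for genes with 1 annotated transcript. The calling of 2-fold differences was tested on simulated data. That simulation took the estimated depth as given, gave every gene the same length and had no variation among animals. It therefore did not test the depth, the fragment numbers, the counting error of short genes or the sharing of fragments between copies.

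Members and lists were chosen with earlier results of these data known. Members with a mean of at least 5 FPKM are given in full, and from each comparison list the 4 most abundant genes and up to 4 with the largest ratios. Members of lower level, neighbouring genes, Evpl, single markers and the upstream sequences printed were chosen after their values were seen. Those sequences came from RefSeq. Protein sequences were not used here. The alternatives were pseudocounts of 0.1 and 5, other filters, scalings and fold limits, and leaving out genes.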

Additional observations from a re-analysis of the deposited data

How the results depend on the processing

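With 1 library per group no library could be left out, and no paired analysis was possible because each group has 1 sample. Of the 15 members that differed by 2-fold, 15 still did with a pseudocount of 0.1, with median centring and with quantile normalization, 14 after rescaling that left out haemoglobin, mitochondrial and ribosomal genes, and 11 with a pseudocount of 5. Tgm1, level in both libraries, was the 1 member to change sign, under quantile normalization. No scaling moved the median of all genes by 0.1 or more. A pseudocount of 5 left 1 Lce gene, 0 Sprr, 0 S100a, 0 envelope partner, 0 barrier and 0 S100 partner genes at least 2-fold higher and 0 S100 partner genes lower. It gave medians of -0.36 for S100a, -0.11 for Sprr, 0.33 for envelope partners and 1.58 for the single genes (1.93 with 1). A pseudocount of 0.1 gave 5 envelope partners higher, and 2 barrier genes higher and 2 lower. With no filter 2 Sprr genes were higher, and medians were 0 for all members, 0 for Sprr, 0 for the single genes and 0.023 for envelope partners. With a mean of at least 5 FPKM, 0 Lce, 0 Sprr, 1 envelope partner and 0 S100 partner genes were higher and 0 S100 partners lower. The medians were then -3.13 for 4 Sprr genes (-0.23 in the main setting), 0.77 for envelope partners and 2.33 for the single genes. Median centring gave 4 and quantile normalization 5 envelope partners higher. Quantile normalization gave 1 S100 partner lower and a Sprr median of -0.086. Rescaling left 0 S100a genes higher, since S100a6 lay at the limit. A 1.5-fold limit gave 2 S100a, 2 Sprr, 7 envelope partner, 3 barrier and 2 S100 partner genes higher, and 6 S100a and 4 barrier genes lower. A 4-fold limit left 0 S100a, 0 Sprr, 0 envelope partner, 0 barrier and 0 S100 partner genes higher, and 1 S100a and 0 S100 partner genes lower. Without genes listed at 0 in 1 library 1 envelope partner was higher. Without Sprr2 and Lce genes 3 members were lower in place of 6. Leaving out Sprr2a, chosen after seeing the data, gave 5 lower. Other counts remained within 1.5-fold and other medians within 0.1. Depth limits most Lce genes and the low Sprr2 genes.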
